A study of Mus musculus with 4 samples.

Results

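Mature migratory dendritic cells were taken from 4 single-cell libraries of livers of C57BL/6 mice in a study of obesity and liver cancer on a choline-deficient high-fat diet (CD-HFD). A droplet barcode was counted as a member when Ccr7, Fscn1 and Ccl22 together gave at least 4 unique molecular identifiers (UMIs, 1 per captured transcript), at least 2 of these genes were detected, Cd74 gave at least 10 UMIs, and Cd3e and Cd79a gave 0. Of 28199 barcodes that passed the filters (300 or more genes, 500 or more UMIs, no more than 30% of UMIs mitochondrial), 159 were members. The control library came from a mouse or mice on control diet and held 17 members. The low-AFP library came from the CD-HFD and held 27. The high-AFP library held 47, and the HCC library, a cell suspension of the hepatocellular carcinoma region, held 68. AFP is alpha-fetoprotein, a fetal liver protein used as a marker of liver cancer. The labels of the high-AFP library name both a control diet and, in the name of its data, the CD-HFD, so the groups are called here by AFP and not by diet. The age is 15 months in the titles of all 4 and 17 months in their age field. Each group is 1 library, the number of mice pooled is not given in the sources used here, and therefore no difference between libraries could be tested.

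Dendritic cells take up antigen in tissues and present it to T cells. On activation, both conventional dendritic lineages, type 1 (Xcr1, Clec9a) and type 2 (Cd209a, Clec10a in mouse), can enter a shared mature state in which Ccr7, the receptor for the lymphatic chemokines Ccl19 and Ccl21, directs movement to lymph nodes. Fscn1 bundles actin in the long processes of such cells, and Ccl22 is a chemokine that attracts Ccr4-bearing T cells. The mature state is known for costimulatory molecules, non-canonical NF-kB signalling, less uptake of antigen, and also inhibitory ligands such as Cd274 (PD-L1).

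Control, low-AFP, high-AFP and HCC members had median depths of 8779, 13061, 9072 and 11593.5 UMIs, and the 159 members ranged between 3026 and 52335 UMIs. Their median mitochondrial share was 3.77% to 4.77% across libraries. No member barcode occurred in more than 1 library. Some members also held markers of other cells: 17 had at least 20 UMIs of another cell type's fixed markers or at least 100 UMIs of hepatocyte genes, namely 2 control, 5 low-AFP, 6 high-AFP and 4 HCC members. Macrophage markers accounted for 8 of them, hepatocyte genes for 4, endothelial markers for 3, plasmacytoid dendritic markers for 2 and T cell markers for 1, with 1 member counted under more than 1 type. Results were also computed without these members, and without such barcodes in all dendritic gates compared.

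The label was checked with 20 maturation markers that the rule did not use. Members had a median of 16, 17, 17 and 16 of the 20 detected in control, then low-AFP, then high-AFP, then HCC, against 5, 4, 3 and 5 in type 1 dendritic cells and 4, 4, 3 and 5 in type 2 dendritic cells. The ranges overlapped: members went down to 5, 9, 7 and 8 markers, while type 1 cells reached 12, 12, 12 and 15 and type 2 cells 9, 12, 13 and 12. More markers than in any type 1 or type 2 cell of their library were detected in 13 of 17, 24 of 27, 41 of 47 and 40 of 68 members. Type 1 dendritic cells were 486 barcodes with at least 2 UMIs of Xcr1 and Clec9a and no Cd209a. Type 2 and monocyte-related dendritic cells, called type 2 here, were 405 barcodes with Cd209a, at least 2 UMIs of Cd209a and Clec10a, no Xcr1 or Clec9a and at most 2 UMIs of the macrophage genes C1qa and Clec4f. Both gates kept the same limits on Cd74, Cd3e and Cd79a. After every barcode was thinned to 2000 UMIs, members kept a median of 11, 10, 11 and 11 markers, against 1 in either other gate in each library. Thinned members went down to 3 markers in each library, and the other gates reached 5 to 8. At the edge of the rule, 0, 2, 3 and 6 members had only 4 to 6 UMIs of the 3 defining genes, and 10, 20, 35 and 23 barcodes just outside had 2 to 3 UMIs. The outside barcodes had a median of 5.5, 6, 7 and 8 of the 20 markers.

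The defining genes are given as a description, because they chose the members. The level used throughout is CPM, the UMIs of a gene per 1000000 nuclear-encoded UMIs summed over the members of a library, and 4 values in a row run from control through low-AFP and high-AFP to HCC. Ccr7 lay at 1958, 1855, 1751 and 1907 CPM in members of the control, then low-AFP, then high-AFP, then HCC library, and Fscn1 at 807, 893, 944 and 920 CPM. Both were nearly level across libraries. Ccl22 was not: it lay at 2342, 1342, 909 and 493 CPM, from 354, 463, 416 and 415 UMIs. Single members held much of it, with 54.5% of the control UMIs, 21.4% of the low-AFP, 25.7% of the high-AFP and 28.7% of the HCC UMIs in 1 member each. Without that member Ccl22 lay at 1184, 1111, 685 and 358 CPM. Ccl22 was detected in 14 of 17 control, 19 of 27 low-AFP, 37 of 47 high-AFP and 46 of 68 HCC members, and the median member held 3, 2, 2 and 1 UMIs.

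**Figure D1:**
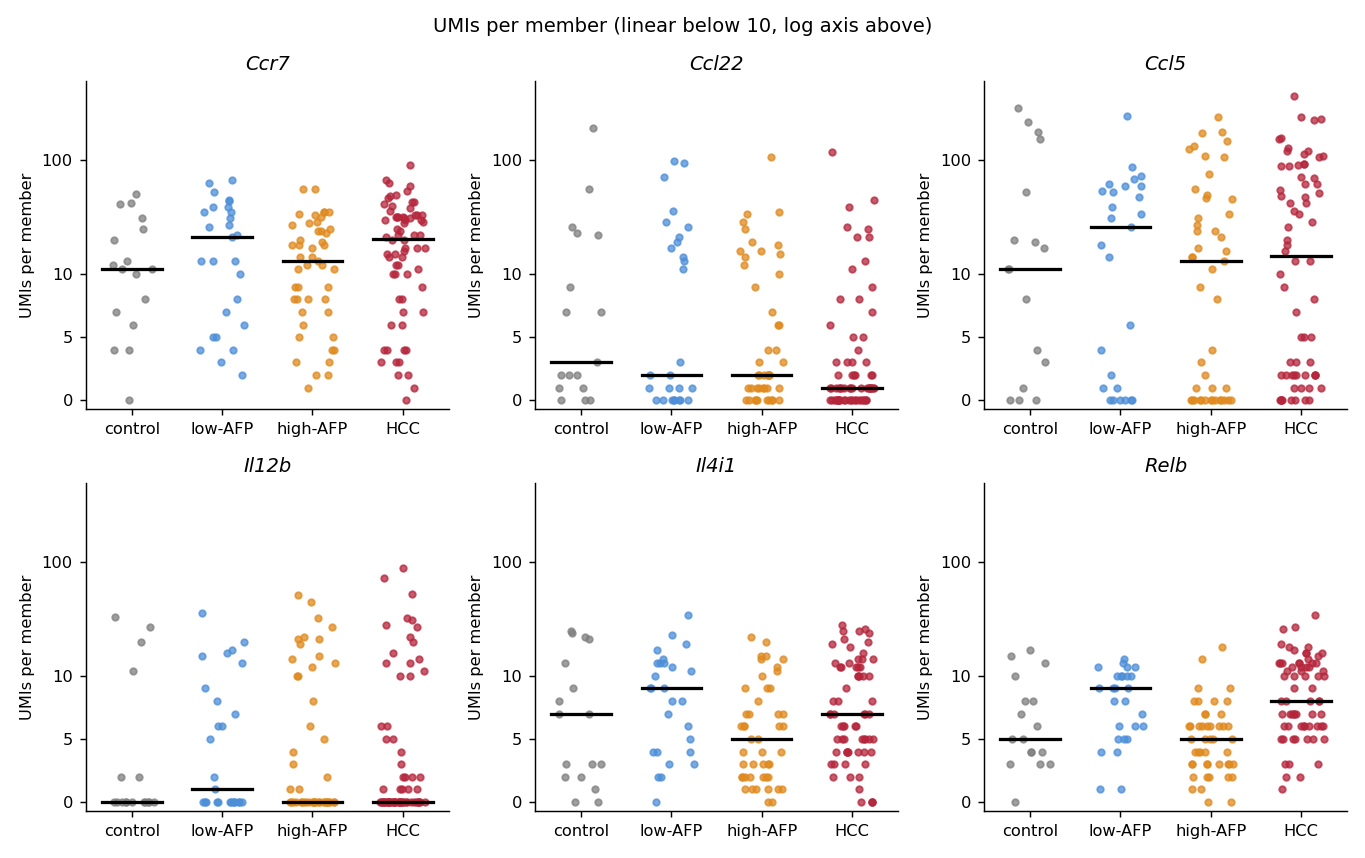
UMIs per member (vertical axis, linear below 10 and logarithmic above) for 6 genes in the libraries of control, of low-AFP, of high-AFP and of HCC. Each point is 1 member and the black line is the median. Ccr7, Il4i1 and Relb were spread over nearly all members, whereas Ccl22, Ccl5 and Il12b combined many members at or near 0 with a few above 100 or above 30 UMIs.

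Members made up 0.267% of kept barcodes in control (95% exact Clopper-Pearson interval 0.156% to 0.428%), 0.504% in the low-AFP library (0.332% to 0.732%), 0.554% in the high-AFP library (0.408% to 0.737%) and 0.850% in HCC (0.660% to 1.08%). The HCC share was the highest and its interval did not overlap that of control. Suspensions were prepared by mixing sorted non-parenchymal cells with purified parenchymal cells at 1:1, whereas the HCC library came from a tumour region, so a share of all barcodes also carries the preparation. Among barcodes with a UMI of Ptprc, the leukocyte gene CD45, the members were 1.06%, 1.27%, 1.5% and 1.09%. Among the 3 dendritic gates together they were 12.9% (7.69% to 19.8%), 14.1% (9.48% to 19.8%), 15.5% (11.6% to 20%) and 16.1% (12.7% to 20%). All 4 intervals overlapped for the last denominator, so a difference in the share of dendritic cells that were mature was not detectable at these numbers. Thinning to 2000 UMIs left 9, 13, 25 and 35 members, or 11.1%, 14.8%, 16.7% and 16.7% of the thinned dendritic gates. The intervals cover counting error only.

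**Figure D2:**
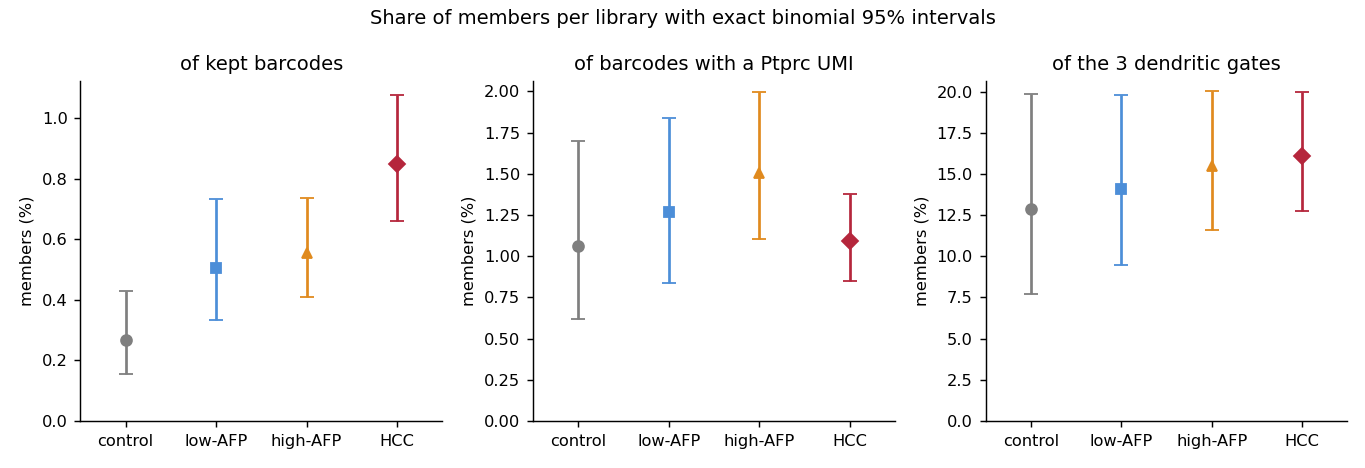
Members as a percentage (vertical axis) of kept barcodes, of barcodes with a Ptprc UMI and of the 3 dendritic gates, per library; bars are exact binomial 95% intervals. The share of kept barcodes was lowest in control (0.267%) and highest in HCC (0.850%), and the share of dendritic gates lay between 12.9% and 16.1% with overlapping intervals.

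Members were then compared with type 1 and type 2 dendritic cells of the same libraries, to describe which genes set the mature cells apart from the other dendritic cells. Counts were summed per library and class and tested with edgeR's quasi-likelihood test with the library as a block, and p-values were adjusted over 8261 genes by the Benjamini-Hochberg method. Against type 1, 1403 genes were higher (17% of those tested) and 1456 lower (17.6%); against type 2, 1335 were higher (16.2%) and 1453 lower (17.6%). In both contrasts alike, 1059 genes were higher and 959 lower. The members were chosen by genes of the same cells, so these tests describe the gate and are no independent support for its name. The 12 genes that defined any of the 3 gates received no call. Folds below are edgeR log2 fold changes, members over the named gate, with their standard error; "rose" and "fell" mean an adjusted p under 0.05.

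All 20 maturation markers rose against type 1 and all 20 against type 2, with list medians of 4.59 and 4.49 on the log2 scale, where the median over all genes tested was -0.09 in both. Il4i1, an amino acid oxidase that dampens T cells, had 992, 759, 619 and 708 CPM in members of the control, then low-AFP, then high-AFP, then HCC library, against 5.01, 3.13, 3.67 and 5.05 CPM in type 1 and 28.7, 18.7, 16.1 and 19.2 CPM in type 2. The groups did not overlap, and the log2 fold was 7.72 ± 0.17 against type 1 (SE, adjusted p = 3.66e-11) and 5.43 ± 0.15 against type 2 (adjusted p = 3.29e-10). Cacnb3, a calcium channel subunit, had 523, 330, 361 and 352 CPM in members, against 0 to 1.57 CPM in type 1 and 0 UMIs in type 2 of every library. Its pooled level of 364 CPM was at least 543-fold higher than the level that 3 counts over all type 2 cells would give. Socs2, a suppressor of cytokine signalling, had 423, 345, 398 and 367 CPM in members, against 3.65 to 9.95 CPM in type 1 and 2.31 to 5.74 CPM in type 2. Cd83, which stabilises surface MHC class II, had 1019, 855, 835 and 903 CPM in members, against at most 242 CPM in type 1 and at most 132 CPM in type 2. Smaller folds were those of Cd83 (3.05 ± 0.21 against type 1) and Cd40 (2.33 ± 0.23 against type 2), which the other gates also expressed. Cd200 had a fold of 2.47 ± 0.39 against type 2. With barcodes that held other-lineage UMIs left out of all 3 gates, its fold against type 2 was 5.72 ± 0.37.

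**Figure D3:**
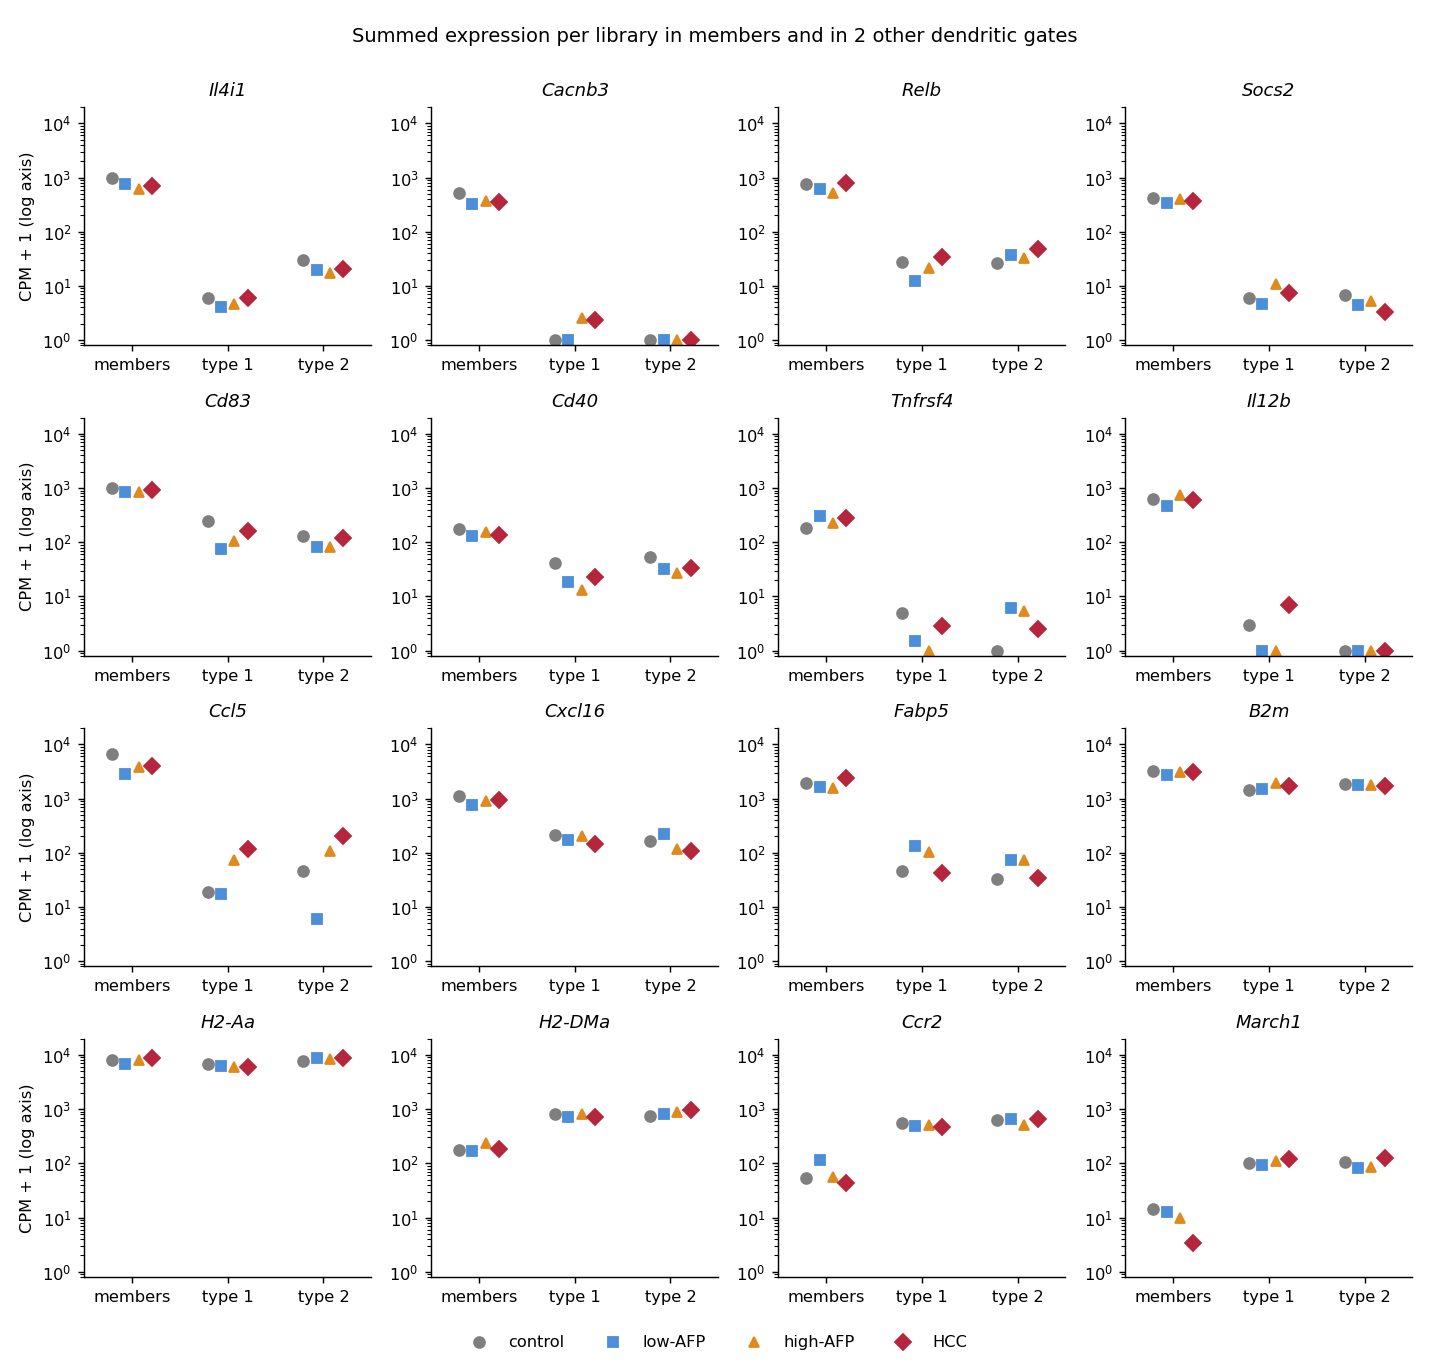
Summed level per library (CPM + 1, logarithmic axis) of 16 genes in members and in type 1 and type 2 dendritic cells; each point is 1 library. Il4i1, Cacnb3, Relb, Socs2 and Il12b lay far above both other gates in all 4 libraries, H2-Aa lay close to both, and H2-DMa, Ccr2 and March1 lay below both.

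Of the NF-kB and survival genes, 20 of 20 rose against type 1, and 19 of 20 rose and 1 fell against type 2 (medians 2.46 and 2.20). Relb, the DNA-binding subunit of the non-canonical pathway, had 761, 623, 520 and 802 CPM in members, against 26.1, 11.5, 20.4 and 33.1 CPM in type 1 and 25.8, 35.7, 31.1 and 46.1 CPM in type 2. All 4 libraries were higher in members, with log2 folds of 5.20 ± 0.21 (adjusted p = 5.07e-09) and 4.44 ± 0.21 (adjusted p = 2.28e-08). Its partner Nfkb2 rose by 3.37 ± 0.19 and 2.35 ± 0.19, and Map3k14, the kinase NIK that activates this pathway, by 3.64 ± 0.18 and 2.78 ± 0.18. The receptor adaptor Traf1, which is also one of the 20 maturation markers, had log2 folds of 4.45 ± 0.32 and 3.02 ± 0.30. Birc2, a ubiquitin ligase that restrains NIK, had folds of 4.10 ± 0.17 and 3.33 ± 0.17. The inhibitors Nfkbia (2.44 ± 0.20 and 1.88 ± 0.20) and Tnfaip3 (2.62 ± 0.34 and 2.47 ± 0.36) rose along with the subunits. Nfkb1, the canonical subunit p50, was the exception: at 225, 148, 157 and 194 CPM in members it stood above type 1 (0.55 ± 0.12) and below type 2 (-1.0 ± 0.12). Bcl2a1b, a survival gene of the Bcl2 family, rose by 3.75 ± 0.21 and 4.19 ± 0.22, but near-identical Bcl2a1 copies can share its reads.

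The promoters of these genes were searched for a known NF-kB motif, as a description of their sequence. RefSeq promoters (GRCm38.p6, a build other than the mm9 named in the submitters' processing notes) were available for 18 of the 20 genes. The motif GGG, then any 3 bases, then TTCC, a common form of the NF-kB site, was searched on both strands in the 250 bases before the gene start. It occurred in 7 of the 18 (38.9%), against 1244 of 27025 promoters in the table (4.60%), and in 1 of 14 matched maturation markers (7.14%). In other lists, the motif occurred in 4 of 10 matched chemokines (40%), namely Ccl9, Cxcl1, Cxcl2 and Cxcl10, and in 0 of 8 matched costimulation genes. Against type 1, 3 of 12 tested chemokines and 9 of 10 tested costimulation genes rose. The matched and the tested genes are not the same sets, and a relation of motif and direction of change was not tested. The shares count promoters with at least 1 match, so overlapping matches do not raise them. The 3 promoters shown belong to the subunits Nfkb2 and Rel and the inhibitor Nfkbia, which rose in both contrasts; capitals mark each match, and the sequences read 5′ to 3′ on the gene's strand.
Nfkb2 (chr19:46304487-46304736, plus strand): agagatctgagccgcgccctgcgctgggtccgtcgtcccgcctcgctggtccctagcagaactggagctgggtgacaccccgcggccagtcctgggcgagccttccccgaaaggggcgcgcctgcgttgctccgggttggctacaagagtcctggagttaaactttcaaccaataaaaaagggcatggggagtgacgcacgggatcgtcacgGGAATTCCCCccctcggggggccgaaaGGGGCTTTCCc
Rel (chr11:23770970-23771219, minus strand): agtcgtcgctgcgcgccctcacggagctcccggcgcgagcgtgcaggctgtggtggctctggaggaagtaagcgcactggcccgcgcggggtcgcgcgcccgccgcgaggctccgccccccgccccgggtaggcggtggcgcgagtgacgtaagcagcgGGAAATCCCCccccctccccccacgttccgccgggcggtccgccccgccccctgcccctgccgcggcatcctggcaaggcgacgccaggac
Nfkbia (chr12:55492648-55492897, minus strand): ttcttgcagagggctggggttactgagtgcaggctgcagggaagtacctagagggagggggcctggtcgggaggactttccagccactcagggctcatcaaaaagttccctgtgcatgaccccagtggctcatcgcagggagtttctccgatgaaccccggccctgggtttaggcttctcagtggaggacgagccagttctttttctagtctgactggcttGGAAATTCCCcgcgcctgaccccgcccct
Nfkb2 held 2 matches, the nearer starting 11 bases before the gene start, and Rel and Nfkbia held 1 each. Rel, the subunit c-Rel, had 774, 403, 428 and 766 CPM in members, against at most 113 CPM in type 1 and at most 178 CPM in type 2. A match of letters is a description and shows no binding. Traf1 and Birc2 held no match in this window.

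Costimulation followed the same direction: 9 of 10 genes tested rose against type 1 and 9 of 10 against type 2 (medians 3.06 and 2.54). Cd40, the receptor through which helper T cells license dendritic cells, had 172, 130, 151 and 134 CPM in members, against 41.1, 17.8, 12.1 and 22.1 CPM in type 1 and 51.7, 30.6, 25.7 and 33.1 CPM in type 2. Cd80, a ligand of CD28 and CTLA-4, rose by 3.47 ± 0.25 against type 1 and 2.67 ± 0.25 against type 2. Its relative Cd86 rose against type 2 (1.30 ± 0.20, adjusted p = 0.000268) and had a fold of 0.30 ± 0.19 against type 1 (adjusted p = 0.244). Icosl, the ligand of ICOS, rose by 3.04 ± 0.28 and 1.84 ± 0.27. Tnfrsf4 (OX40), usually a receptor of activated T cells, had 185, 304, 223 and 274 CPM in members, against 0 to 4.01 CPM in type 1 and 0 to 5.10 CPM in type 2. It was detected in 7 of 17, 15 of 27, 21 of 47 and 44 of 68 members. Il15ra, which presents Il15 to lymphocytes, rose by 3.91 ± 0.37 and 4.15 ± 0.43, and Il15 itself by 1.71 ± 0.26 and 3.37 ± 0.33.

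Of 12 tolerance and checkpoint genes tested, 7 rose and 3 fell against type 1, and 7 rose and 4 fell against type 2. Cd274, the ligand of PD-1, had 172, 49.3, 118 and 134 CPM in members, against 9.03 to 20.4 CPM in type 1 and 2.87 to 18.7 CPM in type 2. It rose by 2.95 ± 0.34 (adjusted p = 2.62e-05) and 3.45 ± 0.39 (adjusted p = 2.07e-05). Pdcd1lg2, the second PD-1 ligand, was low at 14.2 to 21.9 CPM in members and higher than both gates in all 4 libraries. Pvr, a ligand of TIGIT, rose by 3.30 ± 0.41 and 1.66 ± 0.38, and Fas, a death receptor, by 3.73 ± 0.34 and 3.65 ± 0.37. Aldh1a2, which makes retinoic acid, was rare, with 5, 5, 11 and 16 UMIs, and rose against both. Those that fell against both gates were Lgals9 (galectin 9), Havcr2 (TIM-3) and Vsir (VISTA). Havcr2 had 13.2, 14.5, 13.1 and 24.9 CPM in members, against 70.5 to 119 CPM in type 1 and 34.5 to 76.5 CPM in type 2. Ido1, an enzyme of tryptophan breakdown, had 0 UMIs in members of all 4 libraries.

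Among cytokines, Il12b stood out. It encodes the shared subunit of interleukins 12 and 23 and had 628, 467, 748 and 597 CPM in members, against 2.01, 0, 0 and 5.97 CPM in type 1 and 0 UMIs in type 2 of every library. The log2 fold against type 1 was 8.43 ± 0.52 (adjusted p = 1.53e-06), and the pooled level was at least 913-fold above the level that 3 counts over type 2 would give. It was detected in 6 of 17 control, 14 of 27 low-AFP, 22 of 47 high-AFP and 31 of 68 HCC members. Il12a, the other subunit of interleukin 12, had 0 UMIs in members. Il1b, an inflammatory cytokine, fell against type 2 (-1.25 ± 0.31, adjusted p = 0.00794), and Tgfb1 fell against type 1 (-0.72 ± 0.21) and type 2 (-1.40 ± 0.22).

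Of 12 chemokines tested, 3 rose against type 1, and 5 rose and 1 fell against type 2. With other-lineage barcodes left out of all 3 gates, 4 of 9 rose against type 1. Against type 2, 4 of 9 then rose and 3 fell. Ccl5, which attracts lymphocytes and monocytes, was the most abundant, with 6530, 2863, 3871 and 4014 CPM in members, against 18.1, 16.2, 73.3 and 115 CPM in type 1 and 45.9, 5.10, 105 and 202 CPM in type 2. Its log2 fold was 6.93 ± 0.57 (adjusted p = 1.24e-06) and 6.17 ± 0.56 (adjusted p = 3.48e-06). The other kept barcodes, which include T cells, held 448, 813, 919 and 7128 CPM of Ccl5, so in HCC the level outside the members exceeded that within. Members differed widely: Ccl5 was detected in 14 of 17, 21 of 27, 33 of 47 and 59 of 68, and the highest single member held 288, 247, 241 and 367 UMIs. Cxcl16, the ligand of Cxcr6, was spread evenly, with 1105, 768, 901 and 924 CPM and detection in every member; it rose by 2.62 ± 0.19 and 2.86 ± 0.20. Ccl17, a Ccr4 ligand like Ccl22, rose by 3.29 ± 0.69 and 2.69 ± 0.71, but from 14, 32, 28 and 35 UMIs in 5, 4, 5 and 3 members, and 1 HCC member held 91.4% of the HCC UMIs. Ccl19, a Ccr7 ligand, had 0 UMIs in members of all 4 libraries.

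The receptor for Ccl22 and Ccl17 was looked up in barcodes with a Cd3e UMI, which stand for T cells. These numbered 494, 455, 559 and 2763 in control, then low-AFP, then high-AFP, then HCC, or 29.1, 16.9, 11.9 and 40.6 per member. Ccr4 lay at 7.68 CPM in control (95% Poisson interval 4.81 to 11.6), 4.26 in the low-AFP library (2.33 to 7.15), 2.60 in the high-AFP library (1.25 to 4.78) and 2.58 in HCC (1.88 to 3.47). Ctla4, the inhibitory receptor for Cd80 and Cd86, lay at 28.3, 74.8, 55.6 and 154 CPM, highest in HCC. Cd28, the activating receptor for the same ligands, lay at 153, 149, 137 and 347 CPM, and Pdcd1 (PD-1) at 14.7, 91.0, 84.4 and 186 CPM, both also highest in HCC. Cd40lg (46.8, 7.91, 6.75 and 6.81 CPM) was highest in control. Icos lay at 85.5, 77.9, 52.5 and 83.8 CPM. Its intervals in control (75.1 to 96.9), low-AFP (68.6 to 88.0) and HCC (79.5 to 88.3) overlapped. Foxp3, which marks regulatory T cells, lay at 11.2, 15.5, 8.05 and 7.69 CPM.

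Of 6 chemokine receptors tested beside the defining Ccr7, 1 rose and 4 fell against type 1, and 4 fell against type 2. Ccr2, which guides cells out of blood along Ccl2, had 52.9, 116, 54.6 and 42.8 CPM in members, against 559, 479, 504 and 462 CPM in type 1 and 629, 658, 499 and 660 CPM in type 2. All members' libraries were lower, with log2 folds of -2.68 ± 0.24 and -3.03 ± 0.24. Cx3cr1 (-1.50 ± 0.46 and -2.50 ± 0.45) fell against both. The fold of Cx3cr1 against type 1 turned to 0.99 when barcodes with other-lineage UMIs were left out of all 3 gates. Among 18 migration and cytoskeleton genes tested, 14 rose and 2 fell against type 1, and 11 rose and 3 fell against type 2. The membrane-actin linkers Marcks and Marcksl1, the tetraspanin Tspan3, the integrin chains Itga4 and Itgb1 and the adhesion molecule Icam1 rose against both. Marcks had 1707, 1562, 1322 and 1188 CPM in members, against 641, 471, 676 and 537 CPM in type 1 and 324, 224, 238 and 202 CPM in type 2. Itgb2, the beta chain of leukocyte integrins, had 13.2, 37.7, 61.2 and 46.3 CPM in members, against 177 to 231 CPM in type 1 and 184 to 271 CPM in type 2. Gpr183, an oxysterol receptor that positions cells in lymphoid tissue, rose against type 1 (2.30 ± 0.25), with a fold of 0.54 ± 0.24 against type 2 (adjusted p = 0.101).

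Genes of MHC class I mostly rose, and those of class II went both ways against type 1 and mostly fell against type 2. Of 16 MHC class I genes tested, 13 rose and 1 fell against type 1 and 12 rose against type 2 (medians 0.73 and 0.96). B2m, the invariant chain of class I, had 3222, 2719, 3047 and 3072 CPM in members, against 1425 to 1956 CPM in type 1 and 1723 to 1840 CPM in type 2. It rose by 1.14 ± 0.09 and 0.96 ± 0.09, close to the heavy chain H2-K1 (1.19 ± 0.09 and 0.96 ± 0.09). Psme2, a proteasome activator, and Nlrc5, the transactivator of class I genes, rose by 1.81 ± 0.14 and 2.23 ± 0.14, and by 1.82 ± 0.16 and 2.42 ± 0.18. Of 12 class II genes tested, 3 rose and 4 fell against type 1, and 1 rose and 8 fell against type 2. Over all genes tested, 17% rose and 17.6% fell against type 1, and 16.2% and 17.6% against type 2. With other-lineage barcodes left out of all 3 gates, 5 class II genes rose and 6 fell against type 1. The chain H2-Aa had 8052, 6666, 8055 and 8730 CPM in members, against 5966 to 6761 CPM in type 1 and 7612 to 8919 CPM in type 2, and rose only modestly against type 1 (0.60 ± 0.10). Among the other genes of this list, H2-DMa, a peptide-loading chaperone, had 179, 165, 236 and 186 CPM in members, against 718 to 817 CPM in type 1 and 738 to 950 CPM in type 2. March1, the ubiquitin ligase that removes class II from the surface, had 13.2, 11.6, 8.74 and 2.38 CPM in members, against 92.4 to 121 CPM in type 1 and 79.9 to 123 CPM in type 2 (-3.67 ± 0.34 and -3.63 ± 0.35). Ciita, the class II transactivator, fell by 0.98 on the log2 scale against type 1 and by 1.42 against type 2. Lgmn, a lysosomal protease, rose against type 2 (1.43 ± 0.30) and had a fold of -0.32 ± 0.28 against type 1 (adjusted p = 0.401), which turned to 2.66 with barcodes that held other-lineage UMIs left out of all 3 gates.

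Of 21 uptake and pattern recognition receptors tested, 11 fell and 0 rose against type 1, and 11 fell and 2 rose against type 2. Among the fallen genes, the complement receptor chain Itgam had 0, 0, 6.56 and 14.2 CPM in members, against 93.5 to 109 CPM in type 2 (-3.50 ± 0.46). Macrophage markers moved with this list: 113 of 486 type 1 barcodes held at least 20 UMIs of the macrophage list, against 8 of 159 members and 2 of 405 type 2 barcodes. All 6 macrophage markers tested fell against type 1, and 4 rose against type 2, whose gate had a limit on C1qa and Clec4f. Plasmacytoid markers moved likewise: 53 type 1 and 37 type 2 barcodes, and 2 members, held at least 20 UMIs of that list, and its 6 genes tested fell against type 1 and 5 of them against type 2. With such barcodes left out of all 3 gates, 7087 genes could be tested, of which 1628 were higher (23%) and 1640 lower (23.1%) against type 1 and 1420 were higher (20%) and 1495 lower (21.1%) against type 2. Under this filter 3 of 17 uptake receptors rose and 5 fell against type 1, and their median was 0.36 where it had been -1.31; against type 2, 2 rose and 14 fell. The chemokine receptors had 1 of 6 higher and 2 lower against type 1, with a median of 0.32 in place of -1.61, and 4 lower against type 2. All 8 hepatocyte genes were higher against type 1 under the filter and none before it. Of 247 genes of all lists, 18 turned their direction against type 1 and 4 against type 2. The log2 folds of C1qb and C1qc against type 2 turned to -0.48 and -0.20 without the members that held other-lineage UMIs.

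**Figure D4:**
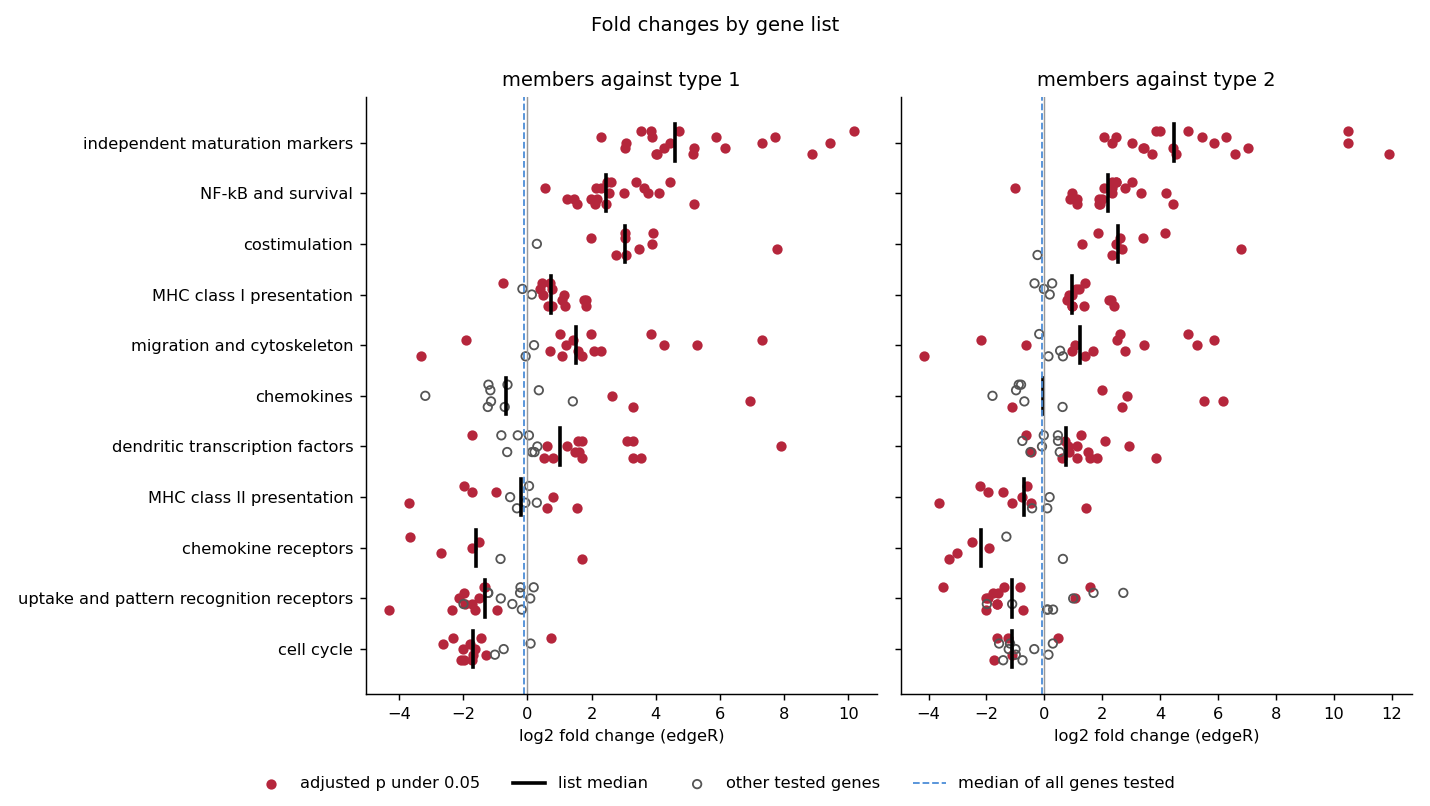
Log2 fold changes (horizontal axis) of the tested genes of 11 lists, members against type 1 (left) and members against type 2 (right); filled points have an adjusted p under 0.05, black bars are list medians and the dashed line is the median of all genes tested. The maturation, NF-kB and costimulation lists had medians between 2.20 and 4.59. The chemokine, chemokine receptor, class II, uptake and cell cycle lists had medians below 0. With other-lineage barcodes left out of all gates, medians against type 1 were 1.195 for chemokines, 0.32 for the receptors and 0.36 for uptake.

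Markers of lineage were sparse in members. Xcr1 or Clec9a gave a UMI in 36 of 159 members (22.6%), and Cd209a or Clec10a in 7 (4.40%); 1 member had both and 117 (73.6%) had neither. In barcodes with a Cd3e UMI, which should lack these genes, the shares were 2.60% and 4.52% at lower median depths of 4347 to 5155 UMIs. Thinned to 2000 UMIs, the shares were 8.18% and 3.14% in members and 0.748% and 2.17% in the Cd3e barcodes. The type 2 share was near that of the Cd3e barcodes and the type 1 share was above it. Single UMIs did not make up either: 22 of the 36 members and 5 of the 7 held more than 1 UMI of their gene pair, and 1 HCC member held 96 UMIs of Cd209a and Clec10a. The holders were not alike in maturation markers. A control member with 6 Xcr1 UMIs and a high-AFP member with 3 Clec9a UMIs had 0 UMIs of Il4i1, Relb and Cacnb3. A low-AFP member with 3 Clec9a UMIs had 9, 5 and 12. Lineage UMIs in a member therefore do not by themselves show a lineage trace in a mature cell. By library, Xcr1 or Clec9a was detected in 8 of 17 control members (47.1%, 95% interval 23.0% to 72.2%), 9 of 27 low-AFP (33.3%, 16.5% to 54.0%), 11 of 47 high-AFP (23.4%, 12.3% to 38.0%) and 8 of 68 HCC members (11.8%, 5.22% to 21.9%). The HCC share was the lowest and its interval ended just below the start of the control interval; thinned, only 2, 5, 4 and 2 members remained, too few to order the libraries.

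Some other lineage genes lay between the gates, and others, such as Ccr2 of the type 2 list, lay below both. Of 13 type 1 genes tested, 1 rose and 10 fell against type 1 and 8 rose and 2 fell against type 2; of 12 type 2 genes tested, 4 rose and 2 fell against type 1 and 8 fell against type 2. With other-lineage barcodes left out of all 3 gates, 7 of 11 type 2 genes rose and 2 fell against type 1, and their median was 3.26 in place of 0.36. Batf3, a factor that type 1 cells need, had 132, 209, 179 and 139 CPM in members, against 168 to 205 CPM in type 1 (0.05 ± 0.14, adjusted p = 0.832) and 68.9 to 97.6 CPM in type 2 (1.28 ± 0.15). Cadm1, an adhesion molecule of type 1 cells, had 72.8, 128, 114 and 86.7 CPM in members, against 220 to 285 CPM in type 1 and 11.5 to 57.8 CPM in type 2. S100a4 had 1105, 814, 957 and 1460 CPM in members, against 39.1 to 151 CPM in type 1 and 1186 to 1975 CPM in type 2. Irf4, a factor of type 2 and of migrating cells, rose against type 1 (3.10 ± 0.43) from 2, 6, 7 and 20 UMIs. Of 22 transcription factors tested, 14 rose and 1 fell against type 1, and 13 rose and 2 fell against type 2. Stat4, a cytokine signal transducer, had 126, 186, 91.8 and 146 CPM in members, against 0 to 1.57 CPM in type 1 and 8.50 to 30.4 CPM in type 2. Stat5a rose by 3.31 ± 0.19 and 2.08 ± 0.19, and Bhlhe40 by 3.30 ± 0.23 and 1.59 ± 0.21.

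The genes with the highest folds in both contrasts included several outside the lists. Apol7c, an apolipoprotein L relative, had 331, 414, 230 and 542 CPM in members but was detected in only 6, 8, 12 and 26 of them; it had 0 to 1.05 CPM in type 1 and 0 to 1.70 CPM in type 2. Asprv1, an aspartic protease, had 59.5, 46.4, 179 and 57.0 CPM in members and 0 UMIs in both other gates of every library, at least 201-fold and 129-fold above the level of 3 counts. Nudt17, Ramp3, Slco5a1, Lad1, Adcy6 and Scin were likewise near 0 outside the members, with at most 5.01 CPM in any library of either gate. Fabp5, a fatty acid binding protein, had 1965, 1623, 1596 and 2402 CPM in members, against 41.8 to 133 CPM in type 1 and 31.6 to 73.1 CPM in type 2 (4.98 ± 0.34 and 5.50 ± 0.36). Il7r, a cytokine receptor of lymphocytes and some dendritic cells, had 92.6, 87.0, 125 and 150 CPM in members and rose against both. Among the genes with the lowest folds, Alox5ap, which serves leukotriene synthesis, had 39.7, 81.2, 37.2 and 71.2 CPM in members, against 548 to 591 CPM in type 1 and 675 to 879 CPM in type 2. Unc119, Ppfia4, P2ry6 and Il16 had at most 20.3 CPM in any library of members and at least 55.9 CPM in every library of either gate. Siglech, Cox6a2, Ccr9, Bcl11a, Atp1b1 and Mef2c also fell against both; the first 3 of these are in the plasmacytoid list described above.

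Between libraries, members were compared without a test, since each group is 1 library. A gene was measured when the higher library had at least 50 CPM and 10 UMIs, and a 2-fold difference was counted on log2 of CPM after adding 10 CPM, which understates the change of low genes. In HCC against high-AFP, 82 of 2847 measured genes were at least 2-fold higher (2.88%) and 117 lower (4.11%); in HCC against low-AFP, 130 of 2843 were higher (4.57%) and 157 lower (5.52%); in high-AFP against low-AFP, 103 of 2850 were higher (3.61%) and 78 lower (2.74%). These 3 pairs share libraries. Control has under 20 members, and its pairs, added after the data were seen, gave 132 higher (4.82%) and 199 lower (7.27%) in HCC, 177 (6.33%) and 196 (7.01%) in high-AFP, and 152 (5.47%) and 222 (7.99%) in low-AFP. Hepatocyte RNA moved with these differences: of 8 hepatocyte genes, 7 were at least 2-fold lower in HCC than in low-AFP and than in control members, and 5 in HCC than in high-AFP. Their sum was 6510, 6141, 5226 and 1538 CPM in members and 98330, 78600, 66890 and 10000 CPM in the other kept barcodes. Its part in the counts was not tested.

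Few genes of any kind passed 2-fold between libraries. In the 3 main pairs, 2.88% to 4.57% of all measured genes were higher and 2.74% to 5.52% lower. Low counts in the lists that follow are therefore not particular to them. Of 20 maturation markers, 1 passed 2-fold in the 3 main pairs: Apol7c was higher in HCC than in high-AFP, at 542 and 230 CPM. None of the 17 measured NF-kB genes and none of the 15 measured class I genes passed 2-fold in these pairs; Rel did so in HCC against low-AFP without cycling members, and Calr and Pdia3 without members that held other-lineage UMIs. Il12b was detected at 597, 748 and 467 CPM in HCC, high-AFP and low-AFP members, and Ccl5 at 4014, 3871 and 2863 CPM. Cd274 was higher in HCC than in low-AFP (134 and 49.3 CPM, ratio 2.72, 95% Poisson interval 1.63 to 4.84) and in high-AFP than in low-AFP (118 and 49.3 CPM, ratio 2.40, 1.37 to 4.41). Control members had 172 CPM of Cd274, the highest of the 4 libraries, from 26 UMIs.

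Stress and immediate early genes were the list with the most members past 2-fold in HCC against high-AFP: 9 of 13 measured were higher and 0 lower, where 2.88% of all measured genes were higher. Fos, an early transcription factor, had 331 CPM in HCC members and 118 CPM in high-AFP members (ratio 2.81, 2.09 to 3.83). Dusp1, a phosphatase of stress kinases, had 521 and 177 CPM (2.94, 2.32 to 3.78), Atf3, a stress-induced factor, 151 and 24.0 CPM (6.27, 3.39 to 12.9), and the heat shock gene Hspa1a 120 and 24.0 CPM (4.99, 2.67 to 10.3). In HCC against low-AFP, 6 of 14 were higher and 1, Egr1, was lower, at 10.7 and 89.8 CPM. In HCC against control, 4 of 14 were higher and 2 lower, where 4.82% and 7.27% of all measured genes were. In high-AFP against control, 7 of 11 were lower (4 of 10 without members that held other-lineage UMIs), where 7.01% of all measured genes were. The list summed to 5756, 4066, 3764 and 6256 CPM, so control lay near HCC in the sum but not gene by gene. Barcodes outside the members moved in the same direction: Fos had 1033 CPM in HCC and 214 CPM in high-AFP, Dusp1 553 and 204 CPM, and Hspa1a 65.2 and 12.3 CPM. The same 9 genes were past 2-fold without cycling members and without members with other-lineage UMIs. Without the deepest member 8 of 14 were higher. Each group is 1 library, so group and library preparation cannot be told apart.

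**Figure D5:**
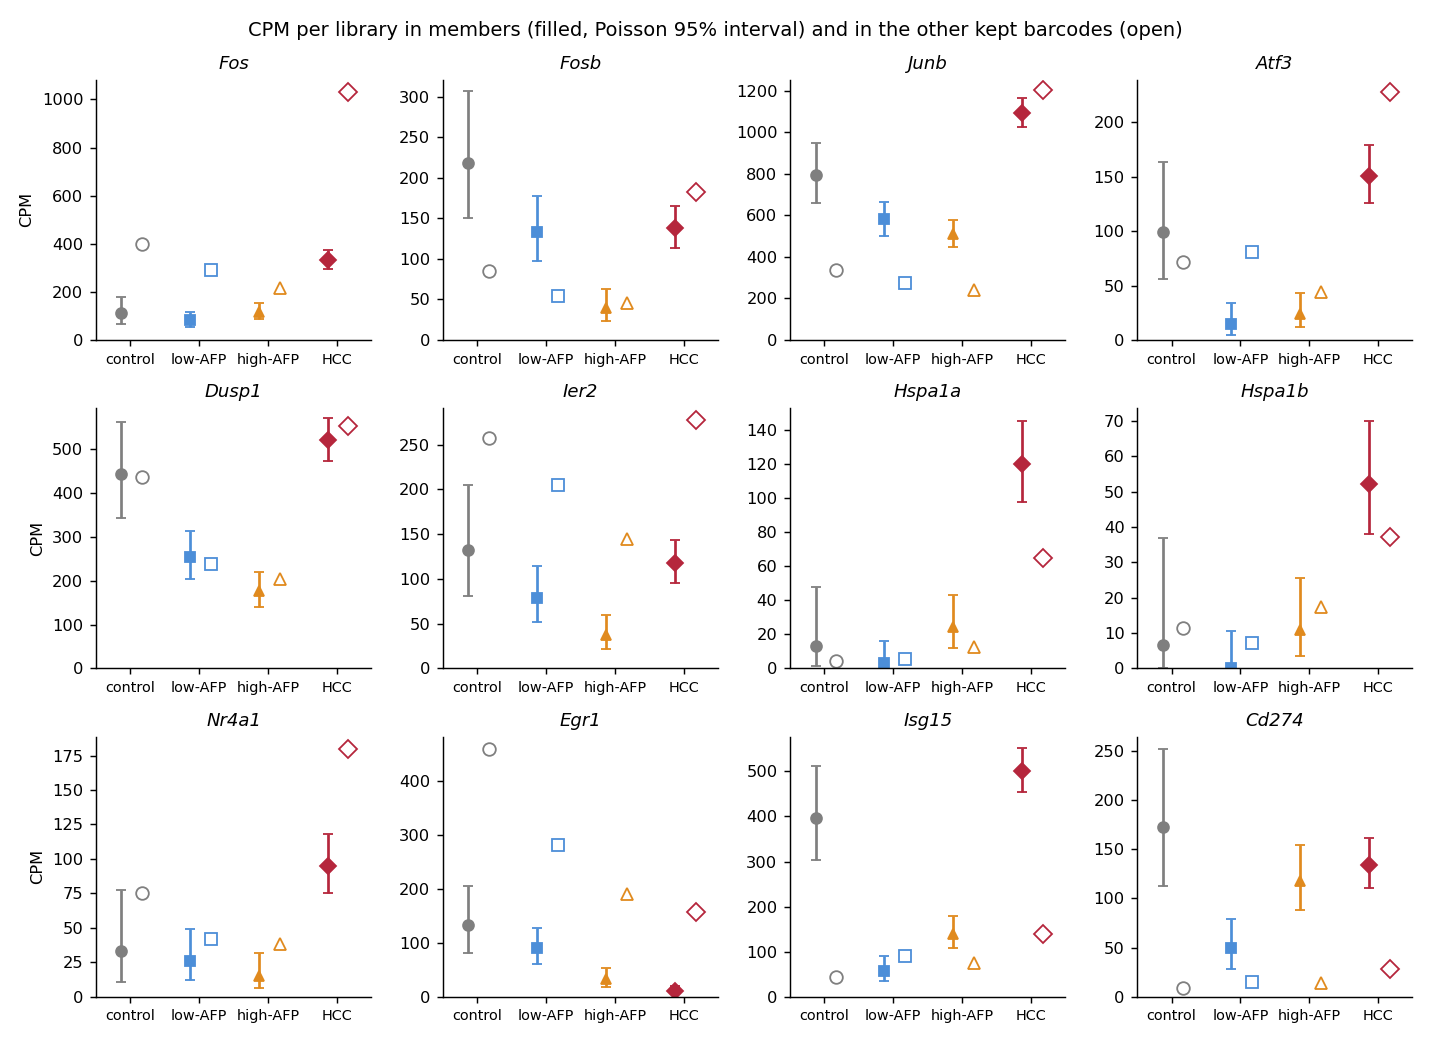
CPM (vertical axis, linear) of 12 genes per library; filled points are members with Poisson 95% intervals and open points are all other kept barcodes. Fos, Atf3, Dusp1 and Hspa1a were higher in HCC than in high-AFP in members and in other barcodes, Egr1 was lowest in HCC, and Cd274 lay above the other barcodes in members of every library.

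Other differences rested on few cells. Of 7 measured cell cycle genes, 5 were higher in HCC than in high-AFP and than in low-AFP, where 2.88% and 4.57% of all measured genes were. However, 6 members, 5 of them from HCC, held at least 3 UMIs of Mki67 and Top2a. Without these members 0 of 2 measured cell cycle genes passed 2-fold. Ube2c, a mitotic ubiquitin enzyme, had 138 UMIs in 4 HCC members and 0 elsewhere. Of 8 interferon-stimulated genes, 4 were higher in HCC than in low-AFP and 2 than in high-AFP, where 4.57% and 2.88% of all measured genes were. Isg15, a ubiquitin-like interferon target, had 397, 58.0, 140 and 501 CPM in members of the control, then low-AFP, then high-AFP, then HCC library, and 1 HCC member held 308 of the 422 HCC UMIs. Without the highest member of each library it had 191, 49.9, 126 and 138 CPM. Cxcl9, a chemokine induced by interferon gamma, had 560 CPM in HCC, 149 CPM in high-AFP and 104 CPM in low-AFP members, and 3 HCC members held 87.1% of the HCC UMIs. Ccl4 had 221, 19.7 and 8.70 CPM in HCC, high-AFP and low-AFP, with 48.4% of the HCC UMIs in 1 member.

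Further named genes also differed between libraries. Ifitm1 had 97 UMIs in 9 HCC members, against 1 UMI in high-AFP and 1 in low-AFP. Plac8, a small cysteine-rich protein, had 291 CPM in 21 HCC members and 249 CPM in 13 high-AFP members, against 43.5 CPM in 8 low-AFP members; the other kept barcodes held 1391, 341 and 374 CPM. Nr4a2, an orphan nuclear receptor, had 218 CPM in HCC, 32.8 CPM in high-AFP and 37.7 CPM in low-AFP; the other kept barcodes held 217, 7.40 and 8.45 CPM. Lower in HCC than in low-AFP were Sdc3, a syndecan (55.8 and 165 CPM), Id3, an inhibitor of helix-loop-helix factors (41.6 and 209 CPM), the receptor Tgfbr1 (33.2 and 119 CPM), Ttc39a (35.6 and 165 CPM) and the actin-severing Scin (57.0 and 194 CPM). Sdc3 and Id3 were also lower outside the members, at 91.7 and 205 CPM and at 108 and 355 CPM in HCC and low-AFP. Scin (45.9 and 194 CPM), Ramp3 (56.8 and 174 CPM) and Ttc39a (63.4 and 165 CPM) were also lower in high-AFP than in low-AFP. C1qb, C1qc and Cd5l, macrophage genes, were higher in high-AFP than in HCC members; 5 high-AFP members and 0 HCC members held at least 20 UMIs of the macrophage list, and 1 high-AFP member held 43.2% of that list's UMIs.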

How the data were processed

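Per the labels' protocols, cells were captured with a 10x 3' kit (version 2) and sequenced on a HiSeq 4000. The authors deposited UMI counts per gene and barcode, made with Cell Ranger (3.0.2 per the file headers) on mm9, per the submitters' processing notes. The 4 libraries held 40838 barcodes and 65326793 to 97393862 UMIs. From these counts, members and the other dendritic gates were selected with python 3.11.15, and counts were summed per library and gate. edgeR 4.0.16 (TMM, filterByExpr, quasi-likelihood, library as block) tested members against each gate; DESeq2 1.42.0 was an alternative. The tests were checked on simulated data. There edgeR recovered 62% of 2-fold changes against type 1 and 60% against type 2, and 98% and 96% of 4-fold changes. The 2-fold rule between libraries recovered 32% to 46% of simulated 2-fold changes and 100% of 4-fold changes. It let 0.0873% to 3.78% of unchanged genes pass, the most in low-AFP against control. In the data, 1 HCC member held 73% of the Isg15 UMIs of its library. How such uneven members would change these rates was not tested. Members, gene lists and comparisons were chosen with earlier results of these data known. Named genes were the 12 highest and 12 lowest by the smaller fold over both contrasts, up to 8 each way per pair of libraries, and up to 6 per list. Doublets were not removed, and their removal was an alternative. Scrublet marked 22 members, namely 5 of 17 control, 6 of 27 low-AFP, 7 of 47 high-AFP and 4 of 68 HCC members. Of all kept barcodes it marked 8.89%, 7.41%, 9.24% and 7.15%, so the share in members was higher in every library but HCC. Intervals are exact and cover counting error only. Coordinates of promoters are from RefSeq's GRCm38.p6.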

Additional observations from a re-analysis of the deposited data

How the results depend on the processing

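Requiring all 3 defining genes gave shares of 0.0944%, 0.261%, 0.295% and 0.400% of kept barcodes in control, then low-AFP, then high-AFP, then HCC, and 4.80%, 7.69%, 8.65% and 8.10% of the dendritic gates. A mitochondrial limit of 15% gave 0.464% in control, and thinning to 2000 UMIs gave 0.276%, 0.344% and 0.508% in low-AFP, high-AFP and HCC. Leaving out each library in turn gave 1070 to 1427 genes higher and 897 to 1219 lower against type 1, and 1055 to 1368 higher and 856 to 1150 lower against type 2; the lowest of all 4 came without HCC. The library was the block that paired the gates; with no replicate block, 1246 genes were higher and 1225 lower against type 1, and 1195 and 1285 against type 2. No paired analysis was possible between the 4 groups because each is 1 library. At limits of 100 CPM and 20 UMIs, 46 genes were higher and 55 lower in HCC against high-AFP, 69 and 70 in HCC against low-AFP, and 53 and 24 in high-AFP against low-AFP. At 20 CPM and 5 UMIs these counts were 196 and 236, 266 and 377, and 214 and 259. Without members that held other-lineage UMIs, a choice made after seeing the data, 216 genes were higher and 90 lower in HCC against low-AFP and 43 were lower in high-AFP against low-AFP. The same choice turned the log2 folds of C1qb (-0.48) and C1qc (-0.20) against type 2, of Ass1 (0.24), Cd5l (-0.45) and Lpl (-0.43) in high-AFP against low-AFP and of Cd5l (0.68) in HCC against high-AFP. With all 3 gates so filtered, C1qb had -0.38 and C1qc -0.17 against type 2, and Cx3cr1 0.99, Lgmn 2.66 and Sdc3 0.28 against type 1; of 247 genes of all lists, 18 turned against type 1 and 4 against type 2, and without those members alone 6 of 275 turned against type 2 and 0 against type 1. Without the deepest member of each library, Ass1 (0.42) and Sds (0.78) turned in high-AFP against low-AFP, and Gnmt (0.10) and Sds (0.87) in HCC against low-AFP. Without cycling members, Top2a had -0.92 in HCC against low-AFP and Mki67 -0.063 in HCC against high-AFP. The cause of these changes was not tested. With 17 to 68 members a library, genes under about 50 CPM rest on few UMIs.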
